A study of Mus musculus with 10 samples.

Results

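The genes described here are 7 transcripts of vitamin D activation and of the hormone signals that control it in the kidney: Cyp27b1, Cyp24a1, Cyp27a1, Vdr, Kl, Fgfr1 and Pth1r. They were picked by symbol, with their values in knockout and wild-type kidneys already known, out of 24062 genes in the count tables. All 7 passed the filter on low counts, as did 15547 genes in all. Because the choice used the comparison of knockout with wild type, the members' values in that comparison are given as a description. No p-value is printed for them. Whether the fit across all genes called them is stated beside the share of all genes called, and again where the fit is varied. Nothing is read from these calls.

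Vitamin D is made active in steps. The liver adds a hydroxyl group to give calcidiol, which circulates bound to the vitamin D binding protein, and the mitochondrial cytochrome encoded by Cyp27b1 turns it into the hormone calcitriol, mainly in the proximal tubule of the kidney. The enzyme encoded by Cyp24a1 starts the breakdown of both forms, and calcitriol, acting through its nuclear receptor Vdr, is known to raise Cyp24a1 and to lower renal Cyp27b1. Parathyroid hormone, through its receptor Pth1r and cyclic AMP, is known to raise Cyp27b1. The bone hormone FGF23, through Fgfr1 and its co-receptor Klotho (the product of Kl), is known to lower Cyp27b1 and to raise Cyp24a1. Cyp27a1 encodes a mitochondrial sterol hydroxylase that works mainly in bile acid synthesis and can also hydroxylate vitamin D.

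Polyadenylated RNA was sequenced from mouse kidneys, adult and male in the comparison of genotypes. The knockout (KO) group held 4 C57BL/6N libraries with the Ehhadh genotype knockout, and the wild-type (WT) group held 4 C57BL/6N libraries. A single wild-type library came from the strain DBA_2J and another from 129S2_SvPasCrl, so neither strain has a replicate, and the sex and age of these animals are not stated in the labels. Ehhadh encodes the L-bifunctional enzyme of peroxisomal fatty acid oxidation, and the labels used here do not describe its knockout allele, the exons removed or the cells in which it was lost. Replicate numbers name libraries only and pair nothing. Titles of KO 3, KO 4, WT 3 and WT 4 begin with the letter E and the other 4 do not. The labels do not say what the letter marks, and each form of title holds 2 KO and 2 WT libraries.

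Levels are given in counts per M of the library total (CPM) after scaling all 10 libraries together by TMM. Library totals ran from 41.49 to 52.30 M counts in KO and from 19.79 to 35.99 M in WT, so KO libraries were the deeper ones. The targeted gene, Ehhadh, read 282, 327, 246 and 175 CPM in KO 1 to KO 4 and 3417, 2211, 2087 and 2184 CPM in WT 1 to WT 4. The groups were far apart, as the labels require, with transcript still counted in KO. The strain libraries read 795 CPM in DBA_2J and 788 CPM in 129S2_SvPasCrl for Ehhadh, below every WT and above every KO library. Summed markers of the proximal tubule, where most renal Cyp27b1 is made, ran from 33312 to 40580 CPM in KO and from 45352 to 47858 CPM in WT. A single gene, Kap, made up 50.8% of that sum in KO and 54.1% in WT, and without it, an alternative added after the values were seen, the sums were 17163 to 19298 CPM in KO and 21018 to 21698 CPM in WT. Of the 15 markers, 5 were called lower and 0 higher, with a median log2 fold change of −0.26 and a span from Slc7a13 at −1.01 (SE 0.13) to Slc5a12 at 0.43 (SE 0.14). Over all tested genes, 4.68% were called lower and 6.32% higher, the shares to set beside this and the next marker counts. Markers listed for the distal convoluted and connecting tubule, where Kl is highest, summed to 5107 to 6500 CPM in KO and 6902 to 7877 CPM in WT, with 7 of 11 called lower, 0 higher and a median of −0.44 (from Trpm6 at −0.88, SE 0.20, to Sgk1 at 0.57, SE 0.30). That list also held Umod and Slc12a1, genes of the thick ascending limb, and Slc12a1 was among those called lower. Umod, at 0.08 (SE 0.12), made up 30.4% of the sum in KO and 23.6% in WT. Without Umod, an alternative added after the values were seen, the sums were 3673 to 4559 CPM in KO and 5318 to 5990 CPM in WT. Markers of injured tubule had 8 of 12 called higher and 0 lower (median 0.92; from Clu at −0.45, SE 0.23, to Havcr1 at 4.60, SE 0.33), with sums of 1296 to 2127 CPM in KO and 1032 to 1389 CPM in WT. Spp1 alone was 54.7% of that sum in KO and 45.9% in WT. Without Spp1, an alternative added after the values were seen, the sums were 624 to 808 CPM in KO and 542 to 771 CPM in WT. The genotypes overlapped in this sum with and without Spp1. The part of these shifts in the members' differences was not tested, and in whole kidney fewer cells of a type and less RNA per cell cannot be told apart.

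The 3 members whose promoters are shown are Cyp27b1, the gene with the largest difference, Vdr, the receptor of its product, and Kl, the FGF23 co-receptor. Each sequence runs from 250 bases before to 50 bases after the start site, on the strand of the gene, from RefSeq on GRCm38.p6. The start site is that of the count tables for all 3. Capitals mark matches, on either strand, to the nuclear receptor hexamer AGGTCA or to its variant spellings GGTTCA, as found in some vitamin D elements, or AGTTCA. They also mark the cyclic AMP response element TGACGTCA, its shorter core TGACG, the box CCAAT bound by factor NF-Y, and the core promoter box TATAAA. A DR3 repeat, the spaced pair of hexamers that the vitamin D receptor is known to bind, was searched for as well.
Cyp27b1, chr10:127047996-127048295, plus strand: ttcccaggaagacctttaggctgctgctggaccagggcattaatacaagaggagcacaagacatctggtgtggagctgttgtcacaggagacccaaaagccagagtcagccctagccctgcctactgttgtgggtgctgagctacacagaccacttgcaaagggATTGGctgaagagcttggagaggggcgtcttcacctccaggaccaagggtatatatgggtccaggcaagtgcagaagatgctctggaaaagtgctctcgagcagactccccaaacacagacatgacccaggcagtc
Vdr, chr15:97908247-97908546, minus strand: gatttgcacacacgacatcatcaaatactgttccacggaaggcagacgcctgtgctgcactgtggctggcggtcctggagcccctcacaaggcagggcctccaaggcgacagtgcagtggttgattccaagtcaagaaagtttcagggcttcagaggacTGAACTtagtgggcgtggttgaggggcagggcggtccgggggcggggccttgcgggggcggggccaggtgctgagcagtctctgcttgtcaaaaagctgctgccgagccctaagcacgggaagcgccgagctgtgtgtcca
Kl, chr5:150952357-150952656, plus strand: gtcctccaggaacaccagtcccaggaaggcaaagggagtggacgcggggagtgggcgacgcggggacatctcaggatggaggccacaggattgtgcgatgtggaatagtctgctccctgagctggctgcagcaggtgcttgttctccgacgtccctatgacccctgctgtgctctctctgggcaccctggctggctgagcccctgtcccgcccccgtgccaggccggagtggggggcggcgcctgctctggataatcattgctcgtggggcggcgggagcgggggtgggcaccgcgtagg

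The Cyp27b1 window held 1 match, a CCAAT on the minus strand at bases −86 to −82, counting −1 as the last base before the start site. The Vdr window held 1 match, AGTTCA on the minus strand at −91 to −86. The Kl window held 0 of these letters. Among 32851 promoters of the same length, CCAAT was in 37.4%, AGTTCA in 14.0%, TGACG in 20.8%, AGGTCA in 16.3%, TATAAA in 13.6%, GGTTCA in 10.4%, TGACGTCA in 1.79% and the DR3 repeat in 0.256%. TGACG lies within TGACGTCA, so those matches overlap. The table had windows for 5 of the 7 members, and among them TGACG was found in Pth1r, in 1 of its 3 windows, at −161 to −157 on the minus strand. That window also held CCAAT on the plus strand at −25 to −21. Of the other members with a window, Cyp27a1 held AGTTCA at −158 to −153 and a pair of CCAAT matches on the minus strand. These are matches of letters and not binding sites.

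Cyp27b1 (chromosome 10, 127048246 to 127053006, plus strand, mm10; 9 exons; 2421 exon bases) was the member that differed most. It read 84.1, 66.6, 134 and 80.4 CPM in KO 1 to KO 4, and 5.21, 3.91, 12.6 and 13.4 CPM in WT 1 to WT 4. The lowest KO library stood well above the highest WT library, and the WT libraries themselves split into a lower pair, WT 1 and WT 2, and a higher pair, WT 3 and WT 4. The means were 91.2 ± 29.4 CPM in KO against 8.76 ± 4.89 CPM in WT (SD, n = 4 each), a 10.2-fold higher level in KO (log2 fold change 3.35, SE 0.36). The raw counts behind these levels were 2798 to 6211 in KO and 102 to 456 in WT. Leaving out any 1 library kept the log2 fold change between 3.11 and 3.62, and thinning every library to the smallest total gave 3.39. The coefficient of variation within WT was 55.8%, the highest of the 7 genes in that group.

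Cyp24a1 (chromosome 2, 170482965 to 170497138, minus strand; 12 exons; 3296 exon bases), which encodes the enzyme that inactivates calcitriol, read 142, 239, 93.0 and 97.0 CPM in KO 1 to KO 4. In WT 1 to WT 4 it read 275, 308, 262 and 271 CPM. Every KO library lay below every WT library, but KO 2 came close to the WT range while KO 3 and KO 4 were at less than 100 CPM. The means were 143 ± 68.0 CPM in KO against 279 ± 19.996 CPM in WT (SD, n = 4 each), 1.95 times lower (log2 fold change −0.96, SE 0.25). The coefficient of variation was 47.6% in KO and 7.16% in WT, so the knockout libraries carried most of the spread. Leaving out 1 library moved the log2 fold change between −1.33, without KO 2, and −0.80. Cyp24a1 shares 83 exon bases with Pfdn4, and reads there were given to both genes without regard to strand. The count of Pfdn4, which includes the shared reads, was 21.0 CPM in WT and 15.6 CPM in KO. Its log2 fold change was −0.42 (SE 0.11), and it was called lower. The part of the shared reads in either gene's difference was not tested.

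**Figure D1:**
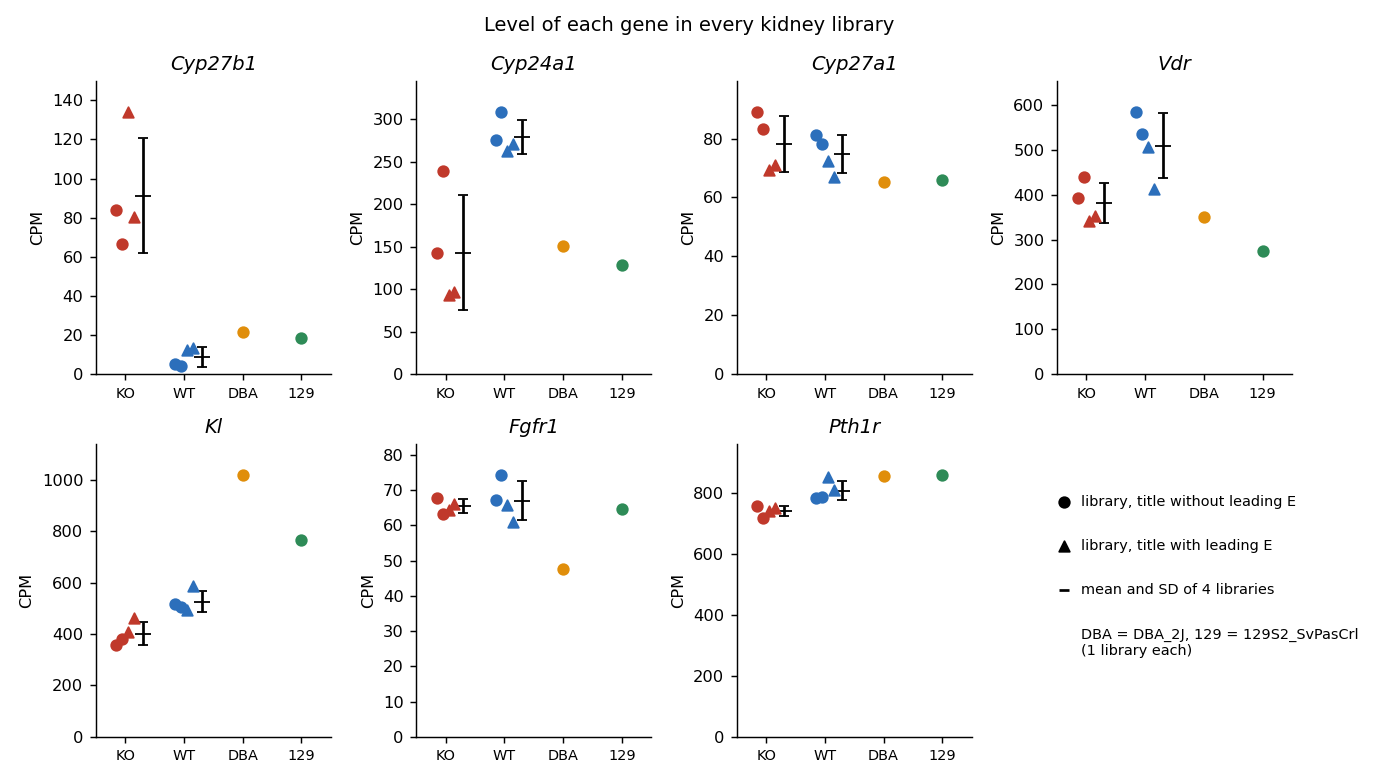
Level of each of the 7 genes in CPM (y axis, from 0) in every library, grouped by genotype and strain; points are libraries (triangles, titles with a leading E), and the black marks are the mean and SD of 4 libraries. Cyp27b1 is far higher in all 4 KO libraries (66.6 to 134 CPM) than in WT (3.91 to 13.4 CPM), Cyp24a1 and Kl are lower in all 4, and Cyp27a1 and Fgfr1 overlap.

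The activating and inactivating enzymes were set against each other within each library, per kilobase of exon. The ratio of Cyp27b1 to Cyp24a1 was 0.804, 0.379, 1.96 and 1.13 in KO 1 to KO 4 and 0.0257, 0.0173, 0.0652 and 0.0671 in WT 1 to WT 4. In WT the inactivating enzyme was therefore the more abundant transcript by a wide margin in every library, while in KO 3 and KO 4 the activating enzyme was the more abundant one. The mean ratio was 1.07 ± 0.669 in KO and 0.0438 ± 0.0260 in WT (SD, n = 4 each). Both strain libraries lay between the groups, at 0.195 in DBA_2J and 0.198 in 129S2_SvPasCrl.

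**Figure D2:**
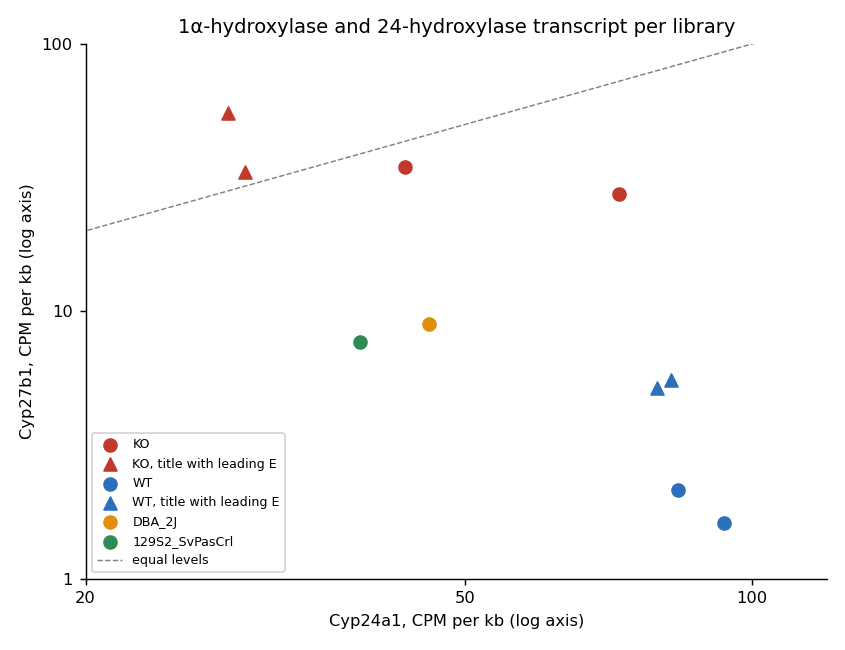
Cyp27b1 (y axis) against Cyp24a1 (x axis), both in CPM per kilobase of exon on log axes, 1 point per library, with the dashed line where the levels are equal. KO libraries lie at the top, with KO 3 and KO 4 above the line, WT libraries at the lower right and the strain libraries between them.

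Cyp27a1 (chromosome 1, 74713574 to 74737890, plus strand; 9 exons; 1890 exon bases), the sterol hydroxylase, served as the other mitochondrial cytochrome of the set. It read 88.9, 83.3, 69.2 and 70.9 CPM in KO and 81.3, 78.3, 72.3 and 67.0 CPM in WT. The groups overlapped throughout, at 78.1 ± 9.56 CPM in KO against 74.7 ± 6.35 CPM in WT (SD, n = 4 each; log2 fold change 0.07, SE 0.09). In both genotypes the libraries with a leading E in the title were the lower pair.

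Vdr (chromosome 15, 97854427 to 97908296, minus strand; 10 exons; 4354 exon bases), the calcitriol receptor, read 394, 441, 342 and 352 CPM in KO 1 to KO 4 and 584, 536, 505 and 412 CPM in WT 1 to WT 4. The groups overlapped by 1 library on each side, since KO 2 read above WT 4. The mean was 382 ± 45.1 CPM in KO against 509 ± 72.4 CPM in WT (SD, n = 4 each), 1.33 times lower (log2 fold change −0.41, SE 0.11).

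Kl (chromosome 5, 150952607 to 150993817, plus strand; 5 exons; 5118 exon bases), which encodes Klotho, read 357, 379, 407 and 463 CPM in KO 1 to KO 4. In WT 1 to WT 4 it read 517, 506, 494 and 585 CPM. The highest KO library stayed below the lowest WT library. The mean was 402 ± 45.7 CPM in KO against 525 ± 40.9 CPM in WT (SD, n = 4 each), 1.30 times lower (log2 fold change −0.38, SE 0.09). The summed distal tubule markers given above were also lower in all 4 KO libraries.

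Fgfr1 (chromosome 8, 25518759 to 25575718, plus strand; 5025 exon bases), the receptor that Klotho pairs with for FGF23, read 67.9, 63.4, 64.3 and 66.1 CPM in KO and 67.1, 74.3, 65.8 and 60.9 CPM in WT. The KO values lay inside the WT range, with means of 65.4 ± 2.0 CPM in KO against 67.0 ± 5.51 CPM in WT (SD, n = 4 each; log2 fold change −0.03, SE 0.07). Fgfr1 shares 125 exon bases with LOC102633315, so a part of its count may belong to that gene. Within a library, the ratio of Kl to Fgfr1 per kilobase ran from 5.17 to 6.88 in KO and from 6.69 to 9.43 in WT, which overlap.

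Pth1r (chromosome 9, 110722085 to 110747145, minus strand; 2721 exon bases), the parathyroid hormone receptor, read 757, 719, 741 and 752 CPM in KO and 784, 786, 852 and 810 CPM in WT. All KO libraries were below all WT libraries, but by little: 742 ± 16.8 CPM against 808 ± 31.6 CPM (SD, n = 4 each; log2 fold change −0.12, SE 0.05). It varied least of the 7 within each genotype, with a coefficient of variation of 2.26% in KO and 3.91% in WT.

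In the edgeR quasi-likelihood fit across all 15547 tested genes, with Benjamini-Hochberg adjustment and calls at an adjusted p under 0.05, 4 of the 7 members were called, against 11.0% of all tested genes. Cyp27b1 was the 1 called higher (6.32% of all genes) and Cyp24a1, Vdr and Kl the 3 called lower (4.68% of all genes). The groups did not overlap for 4 of the 7, Cyp27b1, Cyp24a1, Kl and Pth1r, against 17.7% of all tested genes. The members were chosen from this contrast, so nothing is read from these counts. The median log2 fold change was −0.12 over the members and −0.01 over all tested genes. The call of Cyp27b1 was kept in all 8 fits that left out 1 library. That of Kl was kept in 6 of the 8, and was lost without KO 1 or KO 2. That of Vdr was kept in 2, without KO 2 or WT 4, and that of Cyp24a1 in 1, without KO 2. These fits use the libraries that chose the members again, so they describe only how far each call depends on single libraries.

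Per kilobase of exon, the scale on which genes can be set against each other, the order of the levels differed between the genotypes. In WT, Pth1r was highest at 297 ± 11.6 CPM per kilobase, followed by Vdr at 117 ± 16.6 and Kl at 103 ± 8.0, whose libraries overlapped. Cyp24a1 at 84.7 ± 6.07, Cyp27a1 at 39.5 ± 3.36, Fgfr1 at 13.3 ± 1.10 and Cyp27b1 at 3.62 ± 2.02 CPM per kilobase came next, each below the one before it in all 4 libraries (SD, n = 4). In KO, Pth1r at 273 ± 6.17 CPM per kilobase again stood alone at the top, and Vdr at 87.7 ± 10.4 and Kl at 78.5 ± 8.93 again overlapped. The 3 cytochromes then formed an overlapping group, with Cyp24a1 at 43.4 ± 20.6, Cyp27a1 at 41.3 ± 5.06 and Cyp27b1 at 37.7 ± 12.1 CPM per kilobase. The highest Cyp24a1 value among them, 72.6 in KO 2, also overlapped Kl. Fgfr1 at 13.0 ± 0.398 CPM per kilobase was last (SD, n = 4 each). Cyp27b1 was thus the least abundant of the 7 in WT, and in KO its libraries overlapped those of Cyp27a1.

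Levels of both calcitriol enzymes were also compared between the forms of title within each genotype. Within WT, Cyp27b1 was higher in the libraries with a leading E by 1.53 on the log2 scale (SE 0.27; edgeR quasi-likelihood adjusted p = 0.165), in a fit that called 0.0257% of all tested genes, while Cyp24a1 differed by −0.13 (SE 0.19; edgeR adjusted p = 0.851). Within KO, Cyp24a1 was lower in the libraries with a leading E by a log2 difference of −1.01 (SE 0.19; edgeR quasi-likelihood adjusted p = 0.126), in a fit that called 0.0386% of genes, while Cyp27b1 differed by 0.50 (SE 0.21; edgeR adjusted p = 0.529). None of these 4 differences passed the threshold over all genes, and the comparisons were picked after the values were seen.

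The difference between KO and WT was then compared between the forms of title. The change of that difference between the forms did not choose the members, but the difference within each form was part of the choice. For Cyp27b1 the log2 fold change was 4.08 without the leading E and 3.05 with it, a difference of −1.03 (SE 0.34; edgeR quasi-likelihood interaction, adjusted p = 0.696). For Cyp24a1 it was −0.61 without and −1.49 with the leading E, a difference of −0.88 (SE 0.26; edgeR quasi-likelihood interaction, adjusted p = 0.665). Cyp27b1 was higher and Cyp24a1 lower in KO under both forms, which was fixed in advance because KO and WT libraries did not overlap for either gene. The other 5 members differed between the forms by less, from −0.11 for Cyp27a1 to 0.16 for Kl. Vdr had −0.42 without and −0.40 with the leading E, and Kl had −0.47 and −0.31. This interaction was called in 0% of the tested genes by edgeR, with 1004 at an unadjusted p under 0.05 and no other tool run, and with 2 libraries per genotype and form. KO and WT titles also start with different numbers throughout, and whatever those mark cannot be told apart from genotype.

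**Figure D3:**
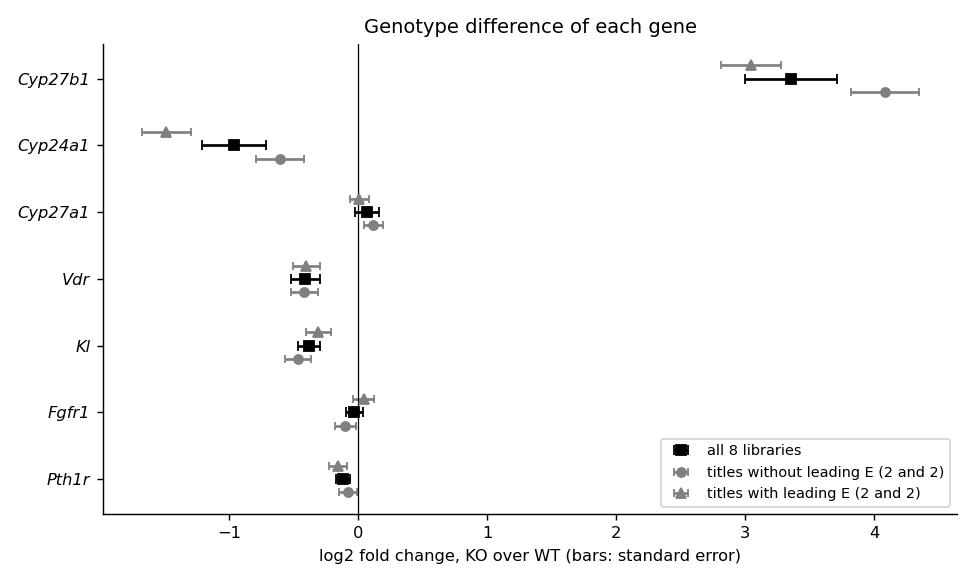
Log2 fold change of KO over WT (x axis) for each of the 7 genes, with bars for the standard error, over all 8 libraries (black) and within titles without (grey circles) and with (grey triangles) a leading E, 2 KO and 2 WT libraries each. The black square of Cyp27b1 stands at 3.35 and that of Cyp24a1 at −0.96, while Cyp27a1, Fgfr1 and Pth1r lie near 0.

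The strain libraries were set beside the 4 WT libraries by size alone, since each strain has 1 library. These values share the WT libraries with the comparison of KO and WT and are not independent of it. Cyp27b1 read 21.7 CPM in DBA_2J and 18.6 CPM in 129S2_SvPasCrl, 2.47 and 2.13 times the WT mean and above all 4 WT libraries. Cyp24a1 read 151 and 128 CPM, below all 4, with log2 differences of −0.88 and −1.12. Both strains therefore held more of the activating and less of the inactivating transcript than any C57BL/6N wild-type library, with Cyp27b1 still below every KO library.

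Vdr read 351 CPM in DBA_2J and 276 CPM in 129S2_SvPasCrl, also below all 4 WT libraries (log2 differences of −0.53 and −0.87). Kl read 1018 and 766 CPM, above all 4 WT libraries and 1.94 and 1.46 times the WT mean. The Kl to Fgfr1 ratio per kilobase was 20.9 in DBA_2J and 11.6 in 129S2_SvPasCrl, both above the highest WT library. Fgfr1 read 47.7 CPM in DBA_2J, below the WT libraries, and 64.8 CPM in 129S2_SvPasCrl, inside their range. Cyp27a1 read 65.1 and 66.1 CPM, just under the lowest WT library, and Pth1r read 857 and 859 CPM, just over the highest. The log2 difference of Pth1r from the WT mean was 0.09 in both strains. With library totals only it was 0.01 in DBA_2J and 0.07 in 129S2_SvPasCrl. Its place just over the WT range therefore depends on the scaling.

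After TMM scaling, 7 of the 7 members in DBA_2J lay outside the range of the 4 WT libraries, where 72.5% of all tested genes did. In 129S2_SvPasCrl 6 of 7 did, where 64.7% of all tested genes did. Pth1r was among them in both strains. A log2 difference of 1 or more in size was reached by Cyp27b1 in DBA_2J, where 12.9% of all genes reached it. In 129S2_SvPasCrl it was reached by Cyp27b1 and Cyp24a1, where 9.78% of all genes reached it.

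Other genes around the members were read in 7 lists, chosen with earlier results of these data known. The called genes named from them were picked by smallest p. Their p-values come from the same comparison of KO with WT, so they are given as a description. Calcidiol reaches the tubule on the vitamin D binding protein, which megalin and cubilin take up, and the mitochondrial hydroxylases draw electrons from ferredoxin. Of 12 tested genes of this uptake and electron supply, 2 rose, 1 fell and 9 were not called (median log2 fold change −0.01, the same as over all genes). Gc, which encodes the binding protein, rose from 23.2 ± 2.78 to 43.2 ± 13.9 CPM (SD, n = 4 each; log2 fold change 0.90, SE 0.18; edgeR quasi-likelihood adjusted p = 0.0102). Amn, the partner of cubilin, rose by a log2 fold change of 0.37 (SE 0.09; edgeR adjusted p = 0.0264). Lrp2, which encodes megalin, fell from 1982 ± 145 to 1481 ± 279 CPM (SD, n = 4 each; log2 fold change −0.42, SE 0.12; edgeR adjusted p = 0.0430), with overlapping groups. The call of Amn was lost without KO 1, WT 1, WT 2 or WT 3 (edgeR adjusted p = 0.0555 to 0.0727), and that of Lrp2 was kept only without KO 4 (0.0548 to 0.107 in the other 7 fits). Cyp3a25 was not tested for low counts.

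Vdr acts as a dimer with a retinoid X receptor and with coregulators. Of 14 tested genes listed around these partners 0 rose and 1 fell, and the list median was 0.03 on the log2 scale. That is 7.14% called, against 11.0% of all tested genes. The retinoid X receptors Rxra, Rxrb and Rxrg were not called. The gene that fell was Cebpa, a transcription factor of differentiated epithelia, from 46.9 ± 5.10 to 35.4 ± 2.17 CPM (SD, n = 4 each; log2 fold change −0.40, SE 0.08; edgeR adjusted p = 0.0105).

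Calcium transport in the distal tubule is a classical target of calcitriol. Of 8 tested genes 0 rose and 1 fell (12.5% called, against 11.0% of all tested genes). The median log2 fold change was −0.28, against −0.01 over all tested genes. The fitted value was below 0 for all 8, but Atp2b1 (−0.0018, SE 0.06) and Trpv6 (−0.02, SE 0.28) stood at about 0. The gene that fell was Slc8a1, the sodium-calcium exchanger, from 88.3 ± 12.8 to 54.5 ± 7.66 CPM (SD, n = 4 each; log2 fold change −0.69, SE 0.12; edgeR adjusted p = 0.0041). Calb1, which encodes the calcium buffer calbindin, and Trpv5, the apical calcium channel, were looked up after the values were seen. Calb1 read 134 ± 34.8 CPM in KO against 184 ± 25.8 CPM in WT, and Trpv5 8.42 ± 1.72 and 9.95 ± 1.0 CPM (SD, n = 4 each), and neither was called. The distal tubule markers, with a median of −0.44, were lower in the same libraries, and their part in this was not tested.

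Fgf23, whose product is made mainly in bone, had too few counts to be tested. Of 11 tested genes listed around FGF23 and Klotho signalling 0 rose and 2 fell, with a median of 0.04. That is 18.2% called, against 11.0% of all tested genes. The list also holds other FGFs and FGF receptors, and FGF23 signalling itself was not measured. Fgf9, another growth factor of the FGF family, fell from 14.97 ± 0.154 to 10.5 ± 0.495 CPM (SD, n = 4 each; log2 fold change −0.50, SE 0.08; edgeR adjusted p = 0.0022). Fgfr2, another FGF receptor, fell from 20.8 ± 1.96 to 14.5 ± 0.766 CPM (SD, n = 4 each; log2 fold change −0.52, SE 0.08; edgeR adjusted p = 0.0030).

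FGF23 signals through the kinase ERK, and of 14 tested genes of the ERK response 3 rose and 1 fell (median 0.07). That is 28.6% called, against 11.0% of all tested genes. Fosl1, a subunit of the transcription factor AP-1, rose from 0.631 ± 0.232 to 2.90 ± 0.731 CPM (SD, n = 4 each; log2 fold change 2.19, SE 0.30; edgeR adjusted p = 0.0012). It shares 1155 exon bases with Ccdc85b, so its count is uncertain. Spred2 and Dusp6, which restrain ERK signalling, rose by 0.33 (SE 0.08) and 0.27 (SE 0.08), and Ier3, an immediate early gene, fell by 0.47 on the log2 scale (SE 0.13). The edgeR adjusted p-values were 0.0210, 0.0475 and 0.0397. These 3 calls depended on single libraries: that of Spred2 was lost without WT 3 or WT 4, that of Dusp6 was kept only without WT 2, and that of Ier3 was lost without KO 1, KO 2, KO 4, WT 1 or WT 3. The edgeR adjusted p-values where the calls were lost ran from 0.0527 to 0.0602, 0.0607 to 0.128 and 0.0533 to 0.105.

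Of 22 tested genes of parathyroid hormone and cyclic AMP signalling, 1 rose and 1 fell, with a median of −0.00. That is 9.09% called, against 11.0% of all tested genes. Crem, a cyclic AMP responsive transcription factor, rose by a log2 fold change of 0.38 (SE 0.09; edgeR adjusted p = 0.0280), and Adcy6, an adenylyl cyclase, fell by 0.21 (SE 0.05; edgeR adjusted p = 0.0274). The call of Crem was kept only without KO 4 or WT 3 and that of Adcy6 only without KO 4 or WT 2 (edgeR adjusted p = 0.0527 to 0.0804 and 0.0593 to 0.0822 in the other fits). Pth, Pthlh and Pth2r were not tested for low counts, and the parathyroid markers Pth, Gcm2 and Chga summed to at most 0.0476 CPM in KO and 0.189 CPM in WT.

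Phosphate transport, which parathyroid hormone and FGF23 lower, had 1 gene that rose and 1 that fell among 8 tested (median −0.05). Slc34a1, the most abundant gene of the list, was looked up after the values were seen. It read 5552 ± 631 CPM in KO against 5568 ± 305 CPM in WT (SD, n = 4 each) and was not called. Slc20a1, the widely expressed sodium-phosphate cotransporter PiT-1, rose from 64.7 ± 18.5 to 137 ± 21.1 CPM (SD, n = 4 each; log2 fold change 1.09, SE 0.18; edgeR adjusted p = 0.0035). Slc34a3, a proximal tubule phosphate cotransporter, fell by 0.36 on the log2 scale (SE 0.09; edgeR adjusted p = 0.0293), with overlapping groups and a call kept only without KO 4 or WT 2 (0.0647 to 0.0809 in the other fits). The calls of Gc, Cebpa, Slc8a1, Fgf9, Fgfr2, Fosl1 and Slc20a1 were kept in all 8 fits that left out 1 library. With titles that have a leading E alone, 2 libraries per genotype, 0 genes of the 7 lists were called in either direction, so these calls were lost too.

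**Figure D4:**
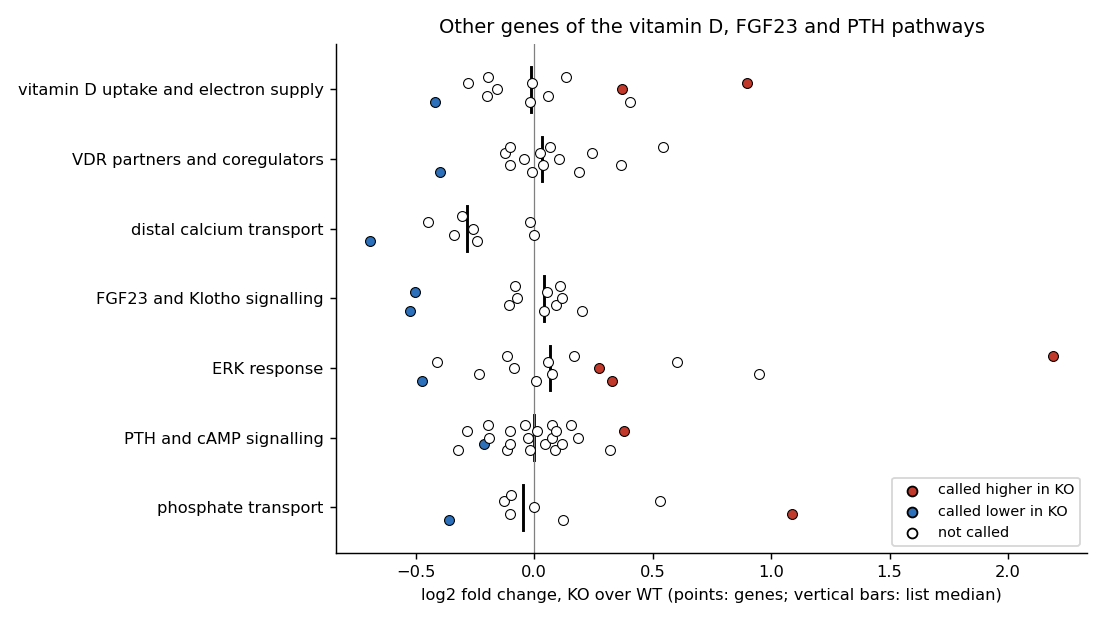
Log2 fold change of KO over WT (x axis) of the tested genes in 7 lists around the vitamin D enzymes; each point is a gene, filled where called in the edgeR fit across all genes, and the vertical bar is the list median. Most points lie close to 0, the distal calcium transport genes lie at or below 0, and Fosl1 (2.19), Slc20a1 (1.09) and Gc (0.90) are the highest called genes.

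The genes next to Cyp27b1 were read in the same libraries. Of 13 genes whose start lies within 100 kb of that of Cyp27b1, 12 were tested, 3 were called higher (6.32% of all tested genes were) and 0 lower. Mettl1, an RNA methyltransferase gene and the nearest gene on the left (2785 bases away), rose from 15.1 ± 0.457 to 18.0 ± 1.07 CPM (SD, n = 4 each; log2 fold change 0.25, SE 0.07), a call lost in all 8 fits that left out 1 library (edgeR adjusted p = 0.0611 to 0.110). March9, a ubiquitin ligase gene and the nearest on the right (3044 bases away), rose by 0.46 (SE 0.11), a call lost without KO 1, KO 3, WT 1, WT 3 or WT 4 (edgeR adjusted p = 0.0502 to 0.0667). Cdk4, which encodes a cell cycle kinase, rose from 76.2 ± 5.15 to 94.9 ± 3.26 CPM (SD, n = 4 each; log2 fold change 0.32, SE 0.06), and kept its call in all 8, though not with leading-E titles alone. Each of these differences was far smaller than that of Cyp27b1.

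**Figure D5:**
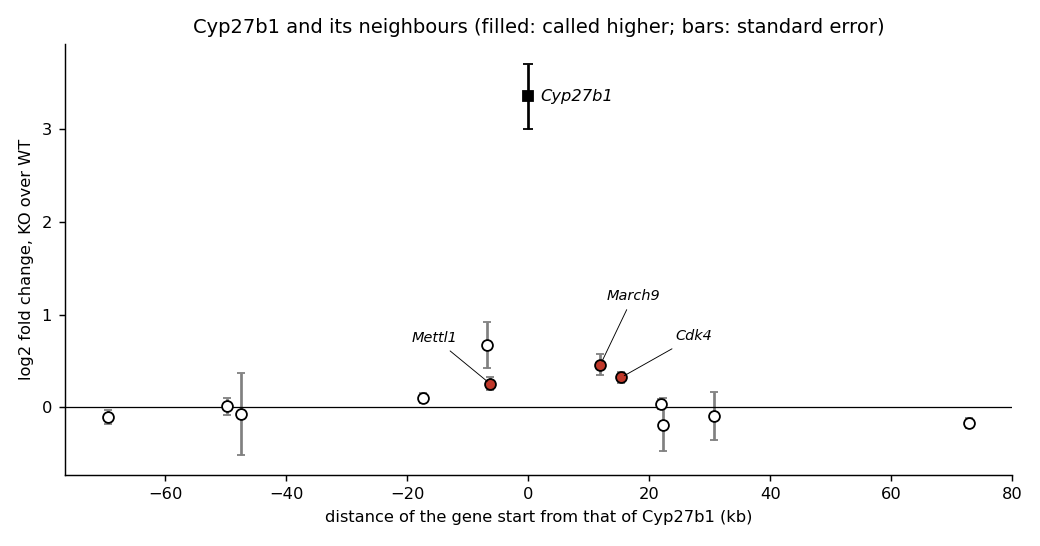
Log2 fold change of KO over WT (y axis, bars for the standard error) against the distance of each tested gene's start from that of Cyp27b1 in kb (x axis); filled points were called higher. Cyp27b1 stands at 3.35 and its 12 tested neighbours at 0.67 or less.

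Over the 10 libraries, genes whose log2 CPM was among the most like that of Cyp27b1, out of 13748 candidates, were Hnrnpa3 (Pearson r = 0.965), Mthfd1l (0.956), 1700024P16Rik (0.951) and Xirp2 (0.949). The points share libraries, genotype and depth, so the likeness is a description of these 10 libraries, and genes that differ between KO and WT as Cyp27b1 does are favoured by it. Xirp2 met the minimum mean level through KO alone, at 2.71 CPM there and 0.0306 CPM in WT. Hnrnpa3 shares 1458 exon bases with Gm6793, so its count is uncertain.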

How the data were processed

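Per the labels' protocols, polyadenylated kidney RNA was sequenced in single-end reads. The submitters' processing notes name STAR, featureCounts, edgeR and mm10 (GRCm38). Per the file headers, featureCounts 1.5.2 made the deposited counts from primary alignments that met exons of a gene, with no strand option and with reads that overlap several genes given to each. The exon length used for values per kilobase is another column of the deposited tables. The authors also deposited normalized log2 values of 13645 genes, used here in an alternative. The deposited joined matrix equalled the single tables in 10 of 10 columns.

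The test used counts of 8 C57BL/6N libraries in edgeR 4.0.16 in R 4.3.3 (filterByExpr, TMM, quasi-likelihood F test, Benjamini-Hochberg over 15547 genes, calls at 0.05). A standard error is the log2 fold change over the square root of F. The biological coefficient of variation was 12.3%, and 1 CPM is about 19.79 counts in the shallowest library. CPM used TMM over all 10 libraries, and strain values used log2 CPM with a prior count of 2. No pair of replicates agreed within sampling noise (lowest chi-square per degree of freedom 10.9). The design text gives 4 animals per genotype, but the labels do not say how libraries were batched.

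The members and the gene lists were chosen with earlier results of these data known. Named are all members, up to 4 called genes of each list by smallest p, the nearest and the called neighbours of Cyp27b1, and the 5 genes most like it with a mean CPM of 1 or more; 1 gene that this rule picks is not reported here. The tests of the title form within WT and within KO were chosen after the values were seen, as was the naming of Calb1, Trpv5, Slc34a1, Umod and Slc12a1. Lists held 93 symbols in 7 pathway lists (1 symbol, Slc9a3r1, in 2 lists) and 69 in 7 marker lists, all matched to the tables, with Adgre1 as Emr1. Macrophage markers had 1 of 11 called higher and 1 lower (sums of 101 to 125 CPM in KO and 119 to 139 in WT), fibroblast and pericyte markers 0 and 2 of 9 (154 to 205 and 202 to 223), and endothelial markers 0 and 1 of 8 (178 to 274 and 243 to 308). Alternatives were other scalings, no low-count filter, thinning to equal depth, the title form as a term or as a subset, DESeq2 1.42.0, limma 3.58.1 on the deposited log2 values, and each library left out. Protein sequences and the promoters of Cyp24a1 and Fgfr1 were not used here. The code was tested on simulated counts.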

Additional observations from a re-analysis of the deposited data

Results flagged for a closer look

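In 54 groups of 4 libraries (27 genes in KO and in WT), a library counted as standing apart where its gap to the nearest of the others, divided by the group's range, was above Dixon's critical value for 4 samples. Chance gives about 1 in 20 groups, and 2 of the 54 passed. Gc in KO had a ratio of 0.860, with KO 4 at 64.0 CPM and the other libraries at 34.8 to 38.9 CPM. Ier3 in WT had a ratio of 0.935, with WT 3 at 38.5 CPM and the other libraries at 25.6 to 26.4 CPM. No library of the 7 vitamin D genes stood apart by this measure in either genotype.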

How the results depend on the processing

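Over 17 alternatives the log2 fold change of Cyp27b1 ran from 3.05 to 4.09 and no member called in KO against WT changed direction. The call itself was kept in all 17 for Cyp27b1, in 14 for Kl, and in 9 each for Cyp24a1 and Vdr. Beside fits with 1 library left out, Kl and Vdr lost it with leading-E titles only, and Cyp24a1 and Vdr with limma on the deposited log2 values. All these fits reuse the libraries that chose the members. They describe dependence on the processing and lend the members' calls no support. In libraries whose titles have no leading E, Cyp27b1 stood at 4.09, and in those with a leading E Cyp24a1 stood at −1.49. Over the alternatives Cyp24a1 ran from −1.49 to −0.61, and Kl from −0.47 to −0.31. The count of genes called higher ran from 92 to 1290 and that of genes called lower from 51 to 1054. The low ends, 92 and 51, came from titles with a leading E only, where 2 libraries per genotype remain. With 1 library left out, 610 to 916 genes were called higher and 381 to 722 lower. Leaving out KO 1 (610 and 395) or WT 3 (625 and 381) moved both counts by over 1.5 times, and leaving out KO 2 (407) or WT 1 (465) moved the lower count. With library totals alone, 1202 genes were called higher and 587 lower. With leading-E titles only, 0 genes of the 7 pathway lists were called. No paired analysis was possible because the labels give no replicate number that KO and WT libraries share. Depth limits low genes most: Cyp27b1 had 102 counts in its lowest WT library.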
